A study of Mus musculus with 5 samples.

Results

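The comparison is the step from 4 h to 8 h of lipopolysaccharide (LPS) in mouse bone marrow-derived macrophages, read as the 8 h library against the 4 h library across genes. Of 13339 genes in the deposited table, 9795 had a mean of at least 1 FPKM (a read density: fragments for each kilobase of a transcript, relative to all mapped fragments) over the 5 libraries, and all 9795 entered the comparison. The nearest gene inside that limit was Zfp11 with a mean of 1.002 FPKM, and the nearest outside was Abcb1a with 0.998 FPKM. The cells came from 8-week-old C57BL/6 animals titled WT, were grown from marrow for 5 days in medium with M-CSF, and received LPS at 100 ng/ml for 4, 8, 12 or 24 h, with a 0 h library before LPS. No untreated cells kept for the same hours were among the samples, so hours in culture and hours in LPS cannot be told apart. Each time was 1 library, so no test, standard error or p-value was possible, and each difference compares a pair of libraries. Whether time or the libraries themselves account for it cannot be told apart.

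LPS is sensed by TLR4 on the macrophage surface. The first genes to respond are driven by NF-kappaB, AP-1 and IRF3, and include cytokines, chemokines and interferon beta. These are followed by secondary genes that need newly made proteins, such as C/EBP delta, IkappaB zeta and the interferon-activated STAT factors. In parallel, inhibitors of signalling and proteins that destroy cytokine mRNA limit the first wave, and the cells turn towards glycolysis.

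The labelled cell type was checked on marker genes. All 8 macrophage markers were over the filter at both times, with a summed level of 2753 FPKM at 8 h and 2983 FPKM at 4 h. Lyz2, a lysozyme usually abundant in macrophages, had 33.6 FPKM at 8 h and 21.8 FPKM at 4 h, and it has a close copy with which reads may be shared. One protocol field speaks of dendritic cells, but of 6 dendritic cell markers 5 were listed and 0 were over the filter, summing to 2.51 FPKM at 8 h and 2.31 FPKM at 4 h. Lymphoid markers summed to 0.22 and 0.07 FPKM, erythroid to 0.29 and 0.89 FPKM, mast cell and basophil to 7.73 and 6.53 FPKM, and stromal to 4.86 and 2.79 FPKM, at 8 h and 4 h in each pair. Neutrophil markers (6 of 7 listed, 5 over the filter) summed to 21.2 FPKM at 8 h and 55.0 FPKM at 4 h, led by Ngp with 12.0 and 39.0 FPKM. The granule genes Mpo, Prtn3, Camp and Ltf were lower at 8 h too, whereas the surface antigen gene Ly6g had 0.53 FPKM at 8 h and 0.19 FPKM at 4 h. Among the macrophage markers Csf1r and Cd14 were lower at 8 h and Fcgr1 higher. In bulk RNA, fewer cells of a type and less RNA per cell cannot be told apart.

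Differences are given on the scale of log2(FPKM + 1), as 8 h minus 4 h. The median gene was 0.15 higher at 8 h than at 4 h, and this shift was subtracted, so that each value is relative to the median gene. A gene is called apart from an absolute centred difference of 1, which is 2-fold on this scale. By this rule 339 genes (3.46%) lay above the limit at 8 h and 525 (5.36%) lay below it; in what follows these are called higher and lower. Without centring the split turned round, with 512 higher and 380 lower, so 57.4% of the genes apart were higher instead of 39.2%. The lower and upper quartiles of all genes were -0.35 and 0.31. The plot of the difference against expression level shows where these genes lie. Genes with a mean under 5 FPKM made up 13.3% of the higher and 21.5% of the lower genes, against 30.0% of all 9795. Each count of list members below is to be read beside the shares of all genes, 3.46% higher and 5.36% lower. A list whose shares are near these does not stand out by its count.

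**Figure D1:**
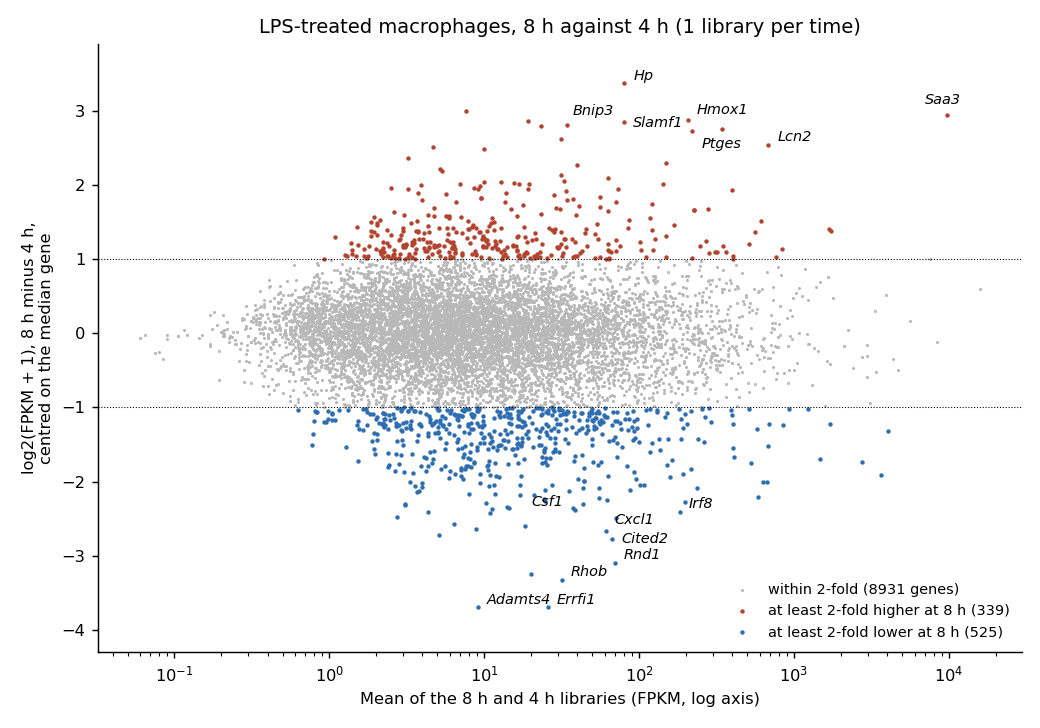
Each point is 1 of 9795 genes, with the mean FPKM of the 8 h and 4 h libraries on a log axis and the centred log2(FPKM + 1) difference, 8 h minus 4 h, on the vertical axis. Hp, at 3.37, is the highest of the labelled genes and Errfi1, at -3.70, the lowest; dotted lines mark 2-fold.

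The step was smaller than the first one and larger than the next. Between 0 h and 4 h, 34.9% of the genes were apart (21.5% higher and 13.4% lower at 4 h), against 8.82% between 4 h and 8 h. From 8 h to 12 h the share was 2.99% (1.61% higher and 1.38% lower at 12 h), and from 12 h to 24 h it was 7.18% (1.51% higher and 5.67% lower at 24 h). The intervals last 4, 4, 4 and 12 h, so the last share covers a longer time. Each step was centred on its own median gene, which moved by -0.70, 0.15, 0.12 and 0.22 in this order. The higher and lower shares are relative to that gene. A split without centring is given for the step from 4 h to 8 h alone.

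The promoters of 4 of the genes furthest apart are shown because they carry the letters of a motif of NF-kappaB or of C/EBP. Of the 30 genes furthest apart, 20 had 1 listed start, and 15 of these 20 held neither motif in the bases before it; the fifth with a match, Procr, held the C/EBP letters and is not printed. They are the 250 bases before the RefSeq start (build GRCm38.p6), 5′ to 3′ on the gene's strand, with motif letters in capitals. The capitals mark TTGCNNAA, a C/EBP motif, in Saa3 (chr7:46715677-46715926, minus strand) and Lcn2 (chr2:32387740-32387989, minus strand), both higher at 8 h. In Cxcl1 (chr5:90890995-90891244, plus strand) and Csf1 (chr3:107760470-107760719, minus strand), both lower at 8 h, they mark an NF-kappaB motif (GGGA and TTCC with 2 bases of any kind between them); each motif was read on both strands, and in Cxcl1 2 matches overlap.
Saa3: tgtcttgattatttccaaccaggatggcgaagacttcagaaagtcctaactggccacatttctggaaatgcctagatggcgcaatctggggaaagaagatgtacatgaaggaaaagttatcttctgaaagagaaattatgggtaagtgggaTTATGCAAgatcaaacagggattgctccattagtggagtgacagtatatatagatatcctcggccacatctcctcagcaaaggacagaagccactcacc
Lcn2: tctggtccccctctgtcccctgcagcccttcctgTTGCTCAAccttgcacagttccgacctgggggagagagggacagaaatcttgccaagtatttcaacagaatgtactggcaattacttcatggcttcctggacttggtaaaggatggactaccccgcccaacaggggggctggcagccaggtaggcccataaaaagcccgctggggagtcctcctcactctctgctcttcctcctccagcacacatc
Cxcl1: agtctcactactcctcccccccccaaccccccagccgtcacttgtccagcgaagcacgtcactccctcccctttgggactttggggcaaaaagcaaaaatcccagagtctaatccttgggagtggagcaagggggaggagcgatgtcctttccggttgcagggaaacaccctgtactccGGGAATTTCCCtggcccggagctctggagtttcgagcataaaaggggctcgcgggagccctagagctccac
Csf1: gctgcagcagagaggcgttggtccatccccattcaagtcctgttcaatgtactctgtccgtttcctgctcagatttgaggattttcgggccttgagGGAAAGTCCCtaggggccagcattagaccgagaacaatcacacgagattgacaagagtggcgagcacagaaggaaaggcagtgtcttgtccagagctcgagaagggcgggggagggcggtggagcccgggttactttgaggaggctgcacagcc
A match is a description of these letters, not of binding. The Saa3 window lies inside the span of its gene record (chromosome 7, 46711998 to 46719615), so that record extends upstream of the start used.

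Among genes with 1 listed start, windows from 250 bases before to 50 after the start were available for 223 of the 339 higher genes, 301 of the 525 lower genes and 6370 of the 9795 genes. The C/EBP letters stood in 13% (29 windows) of the windows of higher genes, 5.98% of those of lower genes and 8.40% of those of all genes over the filter. The NF-kappaB letters stood in 1.79% (4 windows) of higher genes, 3.65% (11 windows) of lower genes and 1.54% of all. For the hypoxia response letters ACGTGC the shares were 12.1%, 6.31% and 8.73%, and for the ETS letters CCGGAAG 12.1%, 8.97% and 21.9%, in the same order. The interferon response letters (GAAA and GAAA, 2 bases apart) gave 5.38%, 4.98% and 3.64%, the STAT letters TTCNNNGAA 8.52%, 6.64% and 6.91%, and the AP-1 letters TGANTCA 7.17%, 9.30% and 4.82%. The antioxidant letters TGACNNNGC gave 15.2%, 18.6% and 15.4%, and the heat shock letters (GAA, TTC and GAA, each 2 bases apart) 1 window, 1 window and 0.283% of all. Over all 22862 single-start windows in the reference the shares were 10.8% for C/EBP, 1.41% for NF-kappaB, 5.81% for hypoxia, 9.12% for ETS, 3.58% for interferon, 8.49% for STAT, 7.98% for AP-1, 12.3% for antioxidant and 0.503% for heat shock letters. The median GC content of the windows was 58.7% for higher genes, 62.3% for lower genes and 61.0% for all genes over the filter.

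Hp, haptoglobin, which binds free haemoglobin (gene 15439; chromosome 8, 109575128 to 109579172, GRCm38), stood at 3.18, 12.0, 149, 315 and 274 FPKM at 0, 4, 8, 12 and 24 h. Its centred difference of 3.37 was the largest of all genes with at least 10 FPKM at 8 h or 4 h. Saa3, an acute-phase serum amyloid (gene 20210; chromosome 7, 46711998 to 46719615), had 18.7, 2036, 17416, 24852 and 40998 FPKM at the same times, a centred difference of 2.94. It made up 3.66% of the summed FPKM at 8 h and 0.469% at 4 h. Cfb, complement factor B, had 609 FPKM at 8 h and 80.2 FPKM at 4 h (2.76). Lcn2, a protein that withholds iron from bacteria, had 1183 FPKM at 8 h and 182.5 FPKM at 4 h (2.54). All of these were above their 4 h level at 12 h and 24 h too. Hp and Lcn2 are also known from neutrophil granules, and the neutrophil markers summed to a lower level at 8 h than at 4 h, as given above. The part of neutrophils in these values was not tested.

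Of the 22 acute-phase and antimicrobial genes over the filter, 9 were at least 2-fold higher at 8 h and 1 was lower, with a median of 0.60. These are 40.9% higher against 3.46% of all genes. Besides the 4 above, the scavenger receptor gene Marco had 52.3 FPKM at 8 h and 9.97 FPKM at 4 h, and the protease inhibitor gene Slpi 45.9 and 12.2 FPKM. Nos2, inducible nitric oxide synthase, had 927 FPKM at 8 h and 291 FPKM at 4 h (1.52). Ptx3, a soluble pattern receptor, was at 61.0 FPKM at 8 h and 17.5 FPKM at 4 h, and was back at 1.42 FPKM at 24 h. Slc39a14, a metal ion importer, was the member lower at 8 h, with 16.5 FPKM against 31.1 FPKM at 4 h (-1.02). Saa1, at 3.62 FPKM at 8 h and 0.48 FPKM at 4 h, resembles other serum amyloid genes, so its reads may be divided among copies.

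Hmox1, heme oxygenase, stood at 176.5, 44.2, 369, 1255 and 3228 FPKM at 0, 4, 8, 12 and 24 h, a centred difference of 2.88 for the step. Spic, a transcription factor known for the heme-recycling macrophages of the spleen, had 42.2 FPKM at 8 h and 4.61 FPKM at 4 h (2.79). The other NRF2, glutathione and thioredoxin genes did not share this: of 26 members, Hmox1 included, 1 was higher, Hmox1 itself, and 2 were lower, with a median of -0.08. Those lower were catalase (Cat, 26.0 FPKM at 8 h and 82.05 FPKM at 4 h) and the glutathione peroxidase gene Gpx1 (47.0 and 89.3 FPKM). Ptges, the inducible prostaglandin E synthase, had 390.2 FPKM at 8 h and 52.5 FPKM at 4 h (2.72), whereas Ptgs2, the cyclooxygenase upstream of it, had 359.7 and 658 FPKM (-1.02). Pla2g4a, which frees arachidonic acid, was higher with 48.6 and 17.4 FPKM (1.28). The 16 prostaglandin and leukotriene genes had a median of -0.40, with 2 higher and 5 lower; over members with a mean of at least 5 FPKM the median was 0.091. The lower ones included the receptor gene Ptger4 (2.55 FPKM at 8 h and 13.4 FPKM at 4 h), the prostaglandin-degrading enzyme gene Hpgd (0.87 and 5.19 FPKM) and the thromboxane synthase gene Tbxas1 (10.8 and 22.4 FPKM).

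Several of the genes furthest up encode surface or signalling proteins. Bst1, an ectoenzyme that uses NAD, had 35.0 FPKM at 8 h and 3.48 FPKM at 4 h (2.85). Slamf1, a receptor that binds itself on other cells, stood at 0.34, 17.0, 143, 121 and 23.4 FPKM at 0, 4, 8, 12 and 24 h (2.85 for the step), so it was highest in the 8 h library. Procr, the protein C receptor, had 253 FPKM at 8 h and 45.4 FPKM at 4 h (2.30). Dok3, an adaptor that restrains receptor signalling, had 55.2 FPKM at 8 h and 7.23 FPKM at 4 h (2.62), beside 31.9 FPKM at 0 h. Abi3 (17.9 FPKM at 8 h, 2.04 FPKM at 4 h) and Lhfpl2 (67.4 and 11.8 FPKM) likewise stood at 20.98 and 107.7 FPKM at 0 h, above their 4 h level. Gm15056 had 14.6 FPKM at 8 h and 0.76 FPKM at 4 h. Bnip3, a mitophagy receptor, completed the 15 genes with 61.6 FPKM at 8 h and 7.08 FPKM at 4 h (2.80).

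**Figure D2:**
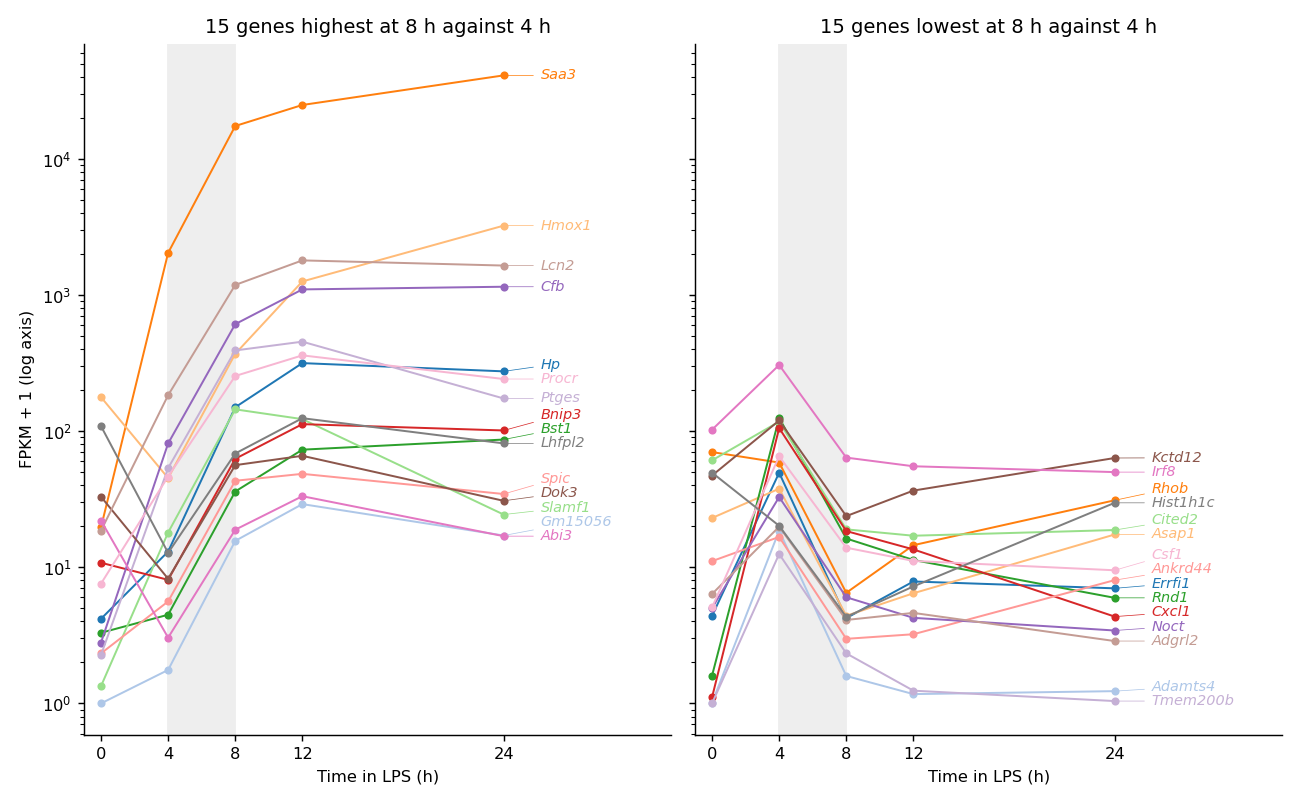
FPKM + 1 on a log axis over 0, 4, 8, 12 and 24 h of LPS for the 15 genes with the largest positive (left) and negative (right) centred difference of 8 h against 4 h, 1 library per time; the grey band marks the step. Saa3 goes on to 40998 FPKM at 24 h, and Cxcl1, Rnd1 and Adamts4 have their highest value at 4 h.

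Genes of sugar use and of the response to low oxygen lay mostly above the median gene in this step. For glycolysis and lactate export the median was 0.75, with 6 of 20 genes (30%) higher, 1 lower and 18 above the median gene. Slc16a3, the main lactate exporter of glycolytic cells, stood at 17.4, 27.3, 119, 217 and 230.0 FPKM at 0, 4, 8, 12 and 24 h (1.94). Pfkl, a phosphofructokinase subunit, had 59.8 FPKM at 8 h and 14.6 FPKM at 4 h (1.81), and the related subunit gene Pfkp was the lower member with 32.65 and 72.35 FPKM (-1.28). Slc16a1, another monocarboxylate carrier, had 36.3 and 10.1 FPKM. The enzyme genes Tpi1 (254 FPKM at 8 h and 82.3 FPKM at 4 h), Ldha (447 and 188 FPKM) and Pgam1 (304 and 135 FPKM) were also at least 2-fold higher. At 0 h, Tpi1, Ldha and Pgam1 stood at 154, 252 and 298 FPKM, above their 4 h level. Pfkl, with 15.7 FPKM at 0 h, was slightly above its 4 h level too, whereas Slc16a1, with 3.29 FPKM, and Slc16a3 were below theirs. Reads of Gapdh, Ldha, Pgam1 and Tpi1 may be shared with processed copies.

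The 19 HIF targets had a median of 0.47, with 2 higher and 0 lower. Beside Bnip3 this was Ankrd37 (2.06 FPKM at 8 h and 0.12 FPKM at 4 h). Egln1, an oxygen-sensing prolyl hydroxylase, had 10.4 and 4.24 FPKM (0.97, under the limit), and Bnip3l, a relative of Bnip3, 14.01 and 18.8 FPKM (-0.55). Hif1a itself stood at 120.01 FPKM at 8 h and 68.3 FPKM at 4 h (0.65). The TCA cycle and respiratory chain lists were near the median gene. Of 21 genes in the TCA cycle list 2 were lower, both NADP-dependent isocitrate dehydrogenases. These were the cytosolic Idh1 with 7.73 FPKM at 8 h and 25.4 FPKM at 4 h (-1.75) and Idh2 with 3.74 and 11.3 FPKM (-1.53). The subunit genes of the NAD-dependent enzyme of the cycle, Idh3a (0.035), Idh3b (0.137) and Idh3g (-0.559), were within the limit. The TCA cycle list had a median of -0.18, and the 28 respiratory chain genes a median of 0.05 with 0 apart. The 7 pentose phosphate genes had a median of -0.42 with 0 apart, led by Taldo1 with 117 FPKM at 8 h and 161 FPKM at 4 h.

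Of 18 genes of MHC class I presentation, 3 were at least 2-fold higher and 0 lower, with a median of 0.55 and 17 above the median gene. These 3, H2-Q6 (15.8 FPKM at 8 h and 3.28 FPKM at 4 h), H2-Q7 (46.9 and 15.8 FPKM) and H2-T22 (394 and 149 FPKM), belong to families of close copies, so their values are uncertain. Nlrc5, the transactivator of class I genes, was at 55.9 and 74.98 FPKM (-0.57). The 27 constitutive proteasome genes had 0 members apart, yet 25 of them lay above the median gene and their median was 0.38; Psma5, a subunit of the core particle, had 126 FPKM at 8 h and 70.55 FPKM at 4 h (0.67). Of 15 cytosolic chaperones 3 were higher and 0 lower (median 0.50): Hsph1 (9.14 FPKM at 8 h and 2.60 FPKM at 4 h), and the nearly identical Hspa1a (15.9 and 2.85 FPKM) and Hspa1b (11.1 and 3.27 FPKM), whose split between copies is uncertain. The 22 ER chaperones and sensors lay mostly below the median gene, with a median of -0.33 and 0 apart, such as Sel1l with 24.8 and 38.7 FPKM. In the integrated stress response list 1 of 16 was higher, Ddit3, a transcription factor of cell stress (17.6 FPKM at 8 h and 4.73 FPKM at 4 h), and the median was 0.32.

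The inflammatory cytokines were the list furthest down. Their median was -1.62, with 10 of 16 over the filter lower (62.5%, against 5.36% of all genes) and 1 higher. Tnf stood at 9.93, 2183, 748, 379 and 189 FPKM at 0, 4, 8, 12 and 24 h, a centred difference of -1.70 for the step. Il6 had 0.10, 247, 71.2, 27.5 and 4.61 FPKM at these times (-1.93), and Il12b, a subunit of IL-12 and IL-23, 0.62, 376, 97.3, 67.2 and 7.62 FPKM (-2.09). In all 3, the 8 h value was below the 4 h value and far above the 0 h value. Csf1, the macrophage growth factor, had 12.9 FPKM at 8 h and 64.3 FPKM at 4 h (-2.38). Il10, which damps inflammation, had 35.2 and 140 FPKM (-2.11), and Il27 had 274 and 993 FPKM (-2.01). Il15 (88.03 FPKM at 8 h and 297 FPKM at 4 h), Il1a (222 and 586 FPKM) and Il1b (1104 and 2323 FPKM) were lower by 1.22 to 1.89. Ifnb1, interferon beta, was at 0.85 FPKM at 8 h and 7.87 FPKM at 4 h (-2.41). Csf3, the granulocyte growth factor, was the member past the limit in the other direction, with 28.1 FPKM at 8 h and 5.47 FPKM at 4 h (2.02). Il19 (0.75), Ebi3 (0.59) and Il18 (0.46) also lay above the median gene, within the limit.

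Chemokines divided by gene. Of 18, 6 were at least 2-fold lower and 1 was higher, with a median of -0.56 and 3 above the median gene. The neutrophil attractants Cxcl1 (17.4 FPKM at 8 h and 104 FPKM at 4 h, -2.66), Cxcl3 (6.13 and 28.2 FPKM) and Cxcl2 (211 and 608 FPKM) were lower. So were Ccl3 (1671 and 5651 FPKM, -1.91), Ccl4 (1368 and 4122 FPKM) and Cxcl10, which attracts T cells (2499.9 and 5616 FPKM). Ccl8, a monocyte attractant, was higher with 32.5 and 13.1 FPKM. Ccl5 had 10475 FPKM at 8 h and 4730.1 FPKM at 4 h, a centred difference of 0.995 that stayed just under the limit. The summed level of the list was 17675 FPKM at 8 h and 22643 FPKM at 4 h.

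Signal transmission and its inhibitors were partly lower. Of the 15 genes of the NF-kappaB and IkappaB family 3 were lower, 0 higher and 14 below the median gene, with a median of -0.54. Rel, a subunit with a transactivation domain, had 7.59 FPKM at 8 h and 34.2 FPKM at 4 h (-2.19). Nfkbiz, the inducible IkappaB zeta, had 82.3 and 244 FPKM (-1.70), and Nfkb1, the precursor of p50, 90.1 and 219 FPKM (-1.42). Ikbkg, the scaffold of the IkappaB kinase, was the member above the median gene with 6.29 and 4.77 FPKM (0.19). The 7 SOCS genes, which block cytokine receptors, had 2 members lower, Cish (0.77 FPKM at 8 h and 9.5 FPKM at 4 h) and Socs7 (4.05 and 19.4 FPKM), and a median of -0.70. Socs3 remained at 505 FPKM at 8 h beside 763 FPKM at 4 h (-0.74). Of 17 genes of A20, TRAF and IRAK feedback 2 were higher and 1 lower (median -0.01): Tax1bp1, a partner of A20 (353 FPKM at 8 h and 140 FPKM at 4 h), and Irak3, an inhibitor of TLR signalling (88.4 and 38.8 FPKM), were higher, and the ubiquitin ligase gene Peli1 was lower (98.2 and 194 FPKM). The receptor antagonist gene Il1rn was higher too, with 2573 FPKM at 8 h and 893 FPKM at 4 h (1.38).

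Of 15 genes that govern the decay of cytokine mRNA, 3 were lower and 0 higher, with a median of -0.36. Zfp36, tristetraprolin, had 360.3 FPKM at 8 h and 792.5 FPKM at 4 h (-1.29), Zc3h12c 9.32 and 20.65 FPKM, and Rc3h1, roquin, 3.11 and 7.32 FPKM. Among 9 MAP kinase phosphatases Dusp1 was lower (125 FPKM at 8 h and 251 FPKM at 4 h, -1.15), and the median was -0.23. Of 19 immediate early factors 3 were lower (median -0.17): the nuclear receptor gene Nr4a3 with 0.71 and 4.58 FPKM, Myc with 1.17 and 4.33 FPKM and Klf6 with 151 and 283 FPKM. Of 16 Toll-like receptors and adaptors 2 were lower (12.5%, against 5.36% of all genes), with a median of -0.25. These were Tlr2, the receptor for bacterial lipopeptides (73.0 FPKM at 8 h and 198 FPKM at 4 h, -1.58), and Cd14, the LPS co-receptor (444 and 931 FPKM, -1.22). Of 24 genes in the cytokine and interferon receptor list 1 was higher (4.17%, against 3.46% of all genes) and 2 were lower (8.33%, against 5.36%). The higher one was Il1rn, which encodes a receptor antagonist, so no receptor gene of the list was past the upper limit. By FPKM alone, Csf3r, Il2ra, Il21r and Il6ra were at 2.13 to 2.46 times their 4 h level. With centring and the added 1 FPKM they stayed under the limit, Csf3r just so (0.98). Those lower were Il10ra (38.1 FPKM at 8 h and 72.9 FPKM at 4 h) and Csf1r, the receptor for Csf1 (199.5 and 363 FPKM). The list median was 0.19.

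Interferon-stimulated genes, taken as a list, stayed close to the median gene in this step. Of 35 antiviral genes, 3 were higher (8.57%) and 1 was lower (2.86%), with a median of 0.00. Irf7, a factor that sustains interferon synthesis, was higher with 1066 FPKM at 8 h and 472 FPKM at 4 h (1.02), as were Bst2, tetherin (831 and 291 FPKM, 1.36), and Ifi44 (98.6 and 27.6 FPKM, 1.65). Parp14, an ADP-ribosyltransferase, was lower with 270.3 and 524 FPKM (-1.10). Cmpk2 and Rsad2, which are neighbouring genes of antiviral nucleotide metabolism, had 1143 FPKM at 8 h against 2039 FPKM at 4 h (-0.98) and 2275 against 3928 FPKM (-0.94), within the limit. Of 16 guanylate-binding proteins and immunity-related GTPases 1 was higher, Gbp6 (209 and 91.8 FPKM, uncertain because of close copies), with a median of -0.10. Among the transcription factors upstream, the 14 IRF, STAT and JAK genes had a median of -0.53, with 4 lower and 0 higher. Irf8, a factor of the macrophage lineage, stood at 101, 305, 62.9, 54.2 and 49.0 FPKM at 0, 4, 8, 12 and 24 h (-2.41). Stat5a had 27.85 FPKM at 8 h and 85.8 FPKM at 4 h (-1.74), Irf1 259 and 545 FPKM (-1.22) and Irf2 39.8 and 78.2 FPKM (-1.11).

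Errfi1, a feedback inhibitor of EGF receptors, had the largest negative difference, with 3.40, 48.4, 3.23, 6.86 and 6.00 FPKM at 0, 4, 8, 12 and 24 h (-3.70). Adamts4, a matrix protease, stood at 0.01, 17.6, 0.59, 0.17 and 0.23 FPKM (-3.70), so that it was above 1 FPKM in the 4 h library alone. Rhob, a small GTPase, had 5.49 FPKM at 8 h and 57.7 FPKM at 4 h (-3.33), Rnd1, another small GTPase, 15.3 and 124 FPKM (-3.09), and Asap1, which acts on Arf GTPases, 3.40 and 36.75 FPKM (-3.25). Of 17 integrin and adhesion genes 5 were lower and 0 higher, with a median of -0.47. Cd44, the hyaluronan receptor, had 72.8 FPKM at 8 h and 322 FPKM at 4 h (-2.28), Icam1 377 and 977 FPKM (-1.52), Vcam1 16.6 and 41.2 FPKM, and the integrin chains Itgav 20.6 and 67.7 FPKM and Itga4 40.1 and 80.03 FPKM.

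The remaining genes of the lowest 15 had several functions. Cited2, a transcriptional co-regulator, had 18.0 FPKM at 8 h and 116 FPKM at 4 h (-2.78), and Noct, nocturnin, 5.02 and 31.8 FPKM (-2.60). Kctd12 had 22.7 and 119 FPKM, Adgrl2, an adhesion receptor, 3.10 and 18.9 FPKM, Ankrd44 1.98 and 15.7 FPKM, Tmem200b 1.33 and 11.5 FPKM, and the linker histone gene Hist1h1c 3.32 and 19.15 FPKM. At 0 h, Cited2, Kctd12, Hist1h1c, Ankrd44 and Adgrl2 stood at 59.98, 46.2, 48.5, 10.1 and 5.36 FPKM, above their 8 h level. Noct and Tmem200b, with 4.02 and 0.00 FPKM at 0 h, stood below theirs. Of 24 transcription factors of the macrophage lineage 5 were lower and 1 higher, with a median of -0.51: besides Irf8 these were Etv3 (20.8 FPKM at 8 h and 90.2 FPKM at 4 h), Tfec (24.9 and 76.2 FPKM), Bach1, the repressor of heme oxygenase (8.80 and 27.6 FPKM, -1.70), and Etv6 (19.0 and 39.3 FPKM), while Mef2d was higher (8.78 and 3.14 FPKM).

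Lipid metabolism is named in the series title. For lipid uptake and storage the median was -0.13, with 3 of 20 genes higher (15%, against 3.46% of all genes) and 5 lower (25%, against 5.36%). Dgat2, which makes triglycerides, had 0.60, 2.94, 17.05, 24.2 and 2.21 FPKM at 0, 4, 8, 12 and 24 h (2.04). Hilpda, a lipid droplet protein that inhibits lipolysis, had 22.1 FPKM at 8 h and 5.08 FPKM at 4 h (1.77), and the acyl-CoA synthetase gene Acsl1 127 and 42.3 FPKM (1.42). Lower were the lysosomal lipase gene Lipa (102 and 328 FPKM, -1.83), the lipoprotein receptor gene Lrp1 (a centred difference of -1.64), lipoprotein lipase Lpl (149.7 and 374 FPKM), the scavenger receptor gene Cd36 (91.1 and 169 FPKM) and Pparg (1.67 and 3.85 FPKM). Of 24 cholesterol synthesis genes 1 was lower, Insig1, which holds SREBP in the ER (26.8 FPKM at 8 h and 55.35 FPKM at 4 h, -1.17), with a median of -0.34 and 11 above the median gene. Of 15 LXR and efflux genes Nr1h3, LXR alpha, was higher (37.9 and 15.9 FPKM, 1.05) and Cyp27a1, an oxysterol-producing enzyme, lower (2.82 and 8.61 FPKM, -1.48), with a median of 0.03. That is 6.67% in each direction, beside 3.46% higher and 5.36% lower of all genes. Ppard, a fatty acid-sensing receptor (11.4 FPKM at 8 h and 2.79 FPKM at 4 h, 1.56), was the higher and Hadh (1.44 and 4.41 FPKM, -1.30) the lower member of 18 fatty acid oxidation genes (median -0.17). Of 8 fatty acid synthesis genes the desaturase gene Fads1 was lower (1.68 and 4.54 FPKM), with a median of -0.29.

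Of 20 efferocytosis genes 5 were lower and 2 higher, with a median of -0.66 and 4 above the median gene. Gas6, a bridging ligand to dying cells, stood at 235, 63.7, 17.4, 7.15 and 19.3 FPKM at 0, 4, 8, 12 and 24 h (-1.97), with its lowest value at 12 h. Itgav, Dock1, Stab1 and Cd36 were lower with it, while the receptor gene Cd300lf (9.69 FPKM at 8 h and 2.22 FPKM at 4 h) and Thbs1, thrombospondin (79.9 and 29.2 FPKM), were higher. Of 17 genes of alternative activation and repair 4 were lower and 0 higher (median -0.66): the lectin genes Clec10a (0.94 and 6.64 FPKM), Clec7a (42.4 and 142 FPKM) and Mrc1 (15.8 and 34.4 FPKM), and Pdgfb (1.23 and 3.25 FPKM). In the lysosome list 1 of 28 was higher, the sialidase gene Neu1 (24.5 and 8.33 FPKM), and 1 lower, the proton pump gene Atp6v0d2 (28.7 and 70.8 FPKM), with a median of -0.17. That is 3.57% in each direction, beside 3.46% higher and 5.36% lower of all genes. None of 22 autophagy genes was apart (median 0.18).

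**Figure D3:**
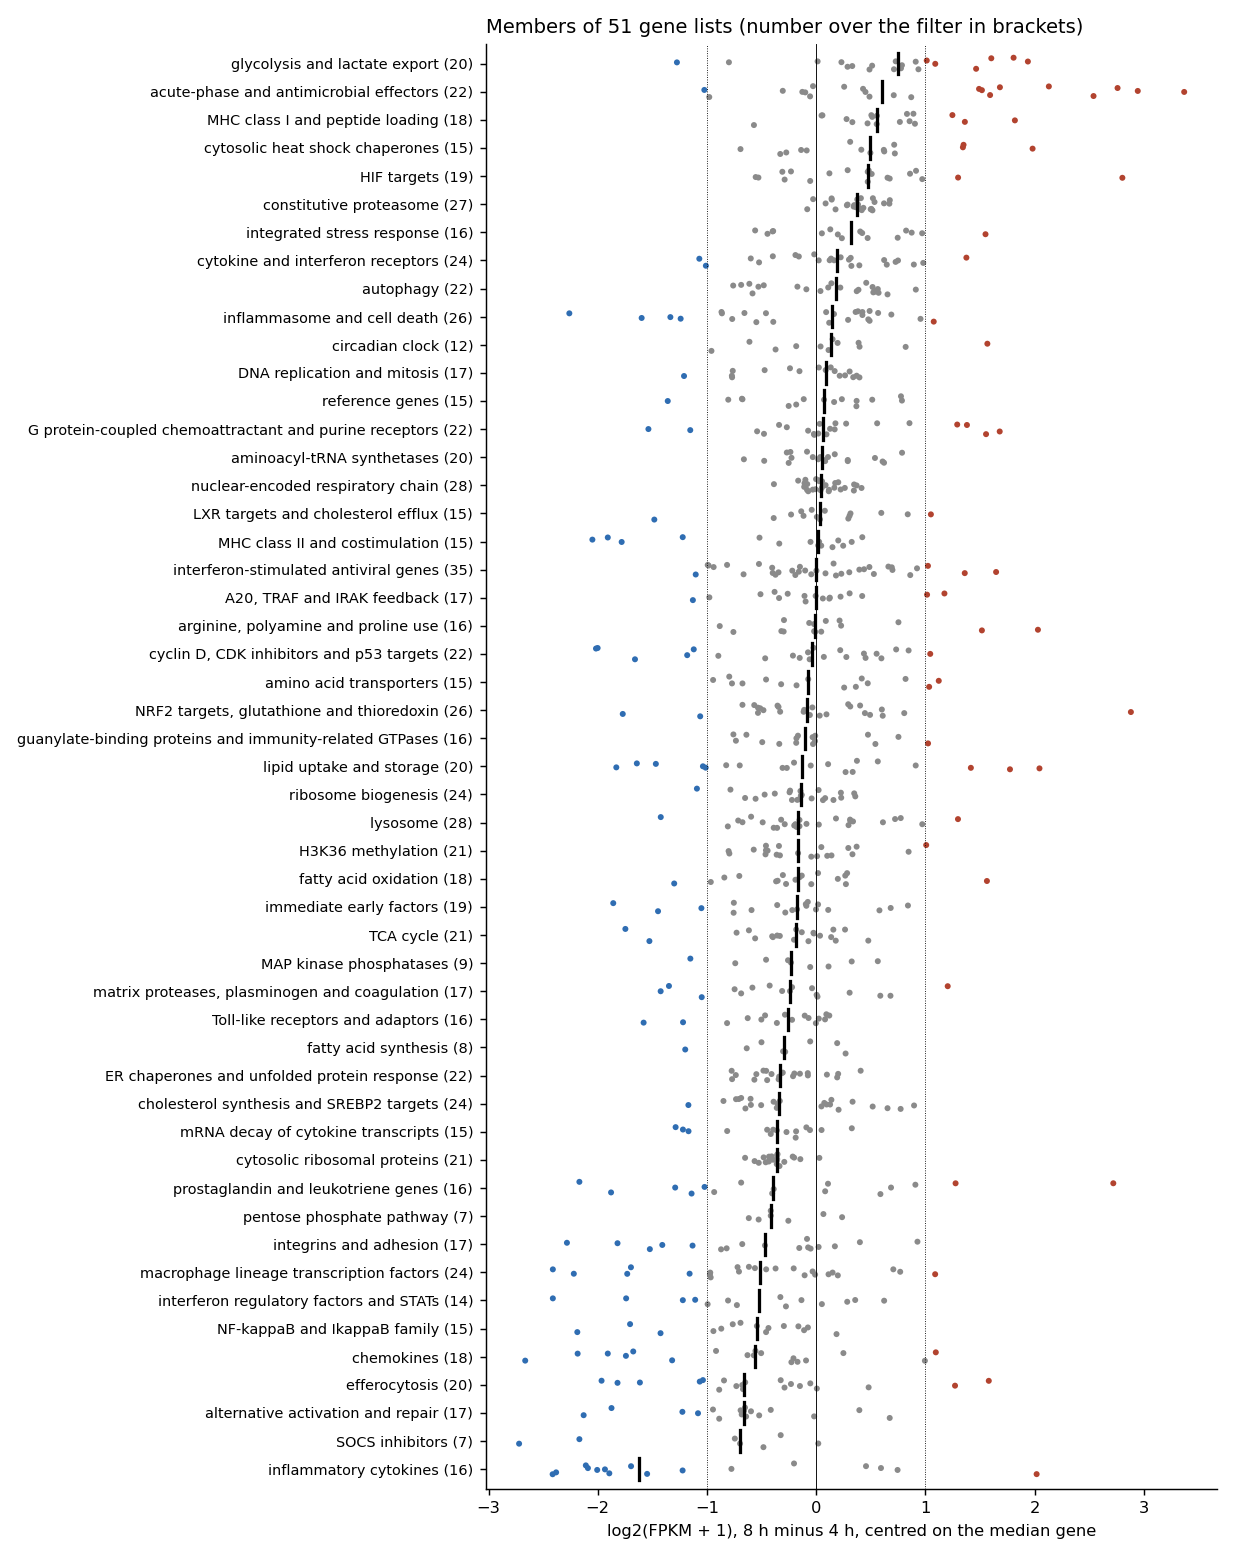
Each point is a member of a gene list, with its centred log2(FPKM + 1) difference, 8 h minus 4 h, on the horizontal axis (red at least 2-fold higher, blue at least 2-fold lower, grey within); black bars are list medians. Glycolysis and acute-phase genes have the highest medians, 0.75 and 0.60, and inflammatory cytokines the lowest, -1.62.

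The other lists had medians between -0.36 and 0.14. In the list of MHC class II and costimulation 4 of 15 members were lower and 0 higher (median 0.02): Cd83 (42.6 FPKM at 8 h and 161 FPKM at 4 h), Cd80 (4.47 and 17.5 FPKM), Tnfsf9 (73.2 and 229 FPKM) and Icosl (18.8 and 40.5 FPKM), while H2-Ab1 had 199 and 134 FPKM (0.42). The costimulatory genes Cd40 (-0.34), Cd86 (0.03) and Cd274 (0.02) were within the limit. Of 26 inflammasome and cell death genes 4 were lower, among them the death effector gene Bcl2l11 (8.74 and 41.0 FPKM, -2.26) and Nlrp3 (63.2 and 174 FPKM), and Nlrc4 was higher (5.44 and 1.75 FPKM), with a median of 0.14. Of 22 genes of the cyclin D, CDK inhibitor and p53 list 5 were lower, including Cdkn1a, p21 (289.9 and 1047 FPKM), and Cdk4 was higher (25.5 and 10.6 FPKM), with a median of -0.04. Receptors for chemoattractants and purines had 4 of 22 higher, such as the adenosine receptor gene Adora2b (48.85 FPKM at 8 h and 13.01 FPKM at 4 h) and the formyl peptide receptor gene Fpr1 (182 and 55.0 FPKM), and 2 lower, Ccr3 and C5ar1 (median 0.06). Of 17 protease and plasminogen genes 3 were lower, the urokinase receptor gene Plaur (78.85 and 192 FPKM), Adam8 (27.3 and 63.9 FPKM) and Timp2, and Timp1 was higher (17.7 and 6.30 FPKM), with a median of -0.24.

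Of 16 genes of arginine and polyamine use 2 were higher, Nos2 and the mitochondrial arginase gene Arg2 (26.25 FPKM at 8 h and 5.01 FPKM at 4 h, 2.03), and of 15 amino acid transporters 2 were higher, the arginine importer gene Slc7a2 (154 and 67.3 FPKM) and Slc38a7; the medians were -0.01 and -0.07. Ribosomal proteins (21 genes, 0 apart) had a median of -0.36 with 1 above the median gene, as in Rpl3 with 171 FPKM at 8 h and 243 FPKM at 4 h. The median was -0.14 for 24 ribosome biogenesis genes (1 lower, Utp20), 0.06 for 20 aminoacyl-tRNA synthetases (0 apart), 0.09 for 17 replication and mitosis genes (1 lower, Mki67), and 0.13 for 12 clock genes (1 higher, Per1). Setd2 itself, the gene of the series title, had 6.57 FPKM at 8 h and 8.40 FPKM at 4 h (-0.46), and of 21 genes of H3K36 methylation 1 was higher, Kdm4b (5.36 and 1.85 FPKM), with a median of -0.17. Of 15 reference genes 1 was lower, the transferrin receptor gene Tfrc (6.12 and 15.4 FPKM), and the median was 0.07. With other scalings (no centring, or the trend with transcript length removed) 12 of the 51 lists had a median of the other sign, all of them within 0.17 of 0 in the centred values.

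The levels of the genes apart were next compared between libraries other than those of 8 h and 4 h. Each comparison was centred on its own median gene. That gene differed by -0.35 for 12 h against 0 h, -0.11 for 24 h against 0 h and 0.22 for 24 h against 12 h. Of the 339 genes higher at 8 h, 197 (58.1%) stood at least 2-fold above their 0 h level at 12 h and 15 (4.4%) at least 2-fold below it, against 16.5% and 12.9% of all genes. At 24 h against 0 h the shares were 47.2% higher and 6.8% lower, against 12.6% and 12.3% of all genes. At 24 h against 12 h, 7 (2.1%) were higher and 74 (21.8%) lower, against 1.51% and 5.67% of all genes. The 339 genes made up 12.2% of all genes higher at 12 h than at 0 h, and 13.3% of those lower at 24 h than at 12 h.

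The 525 genes lower at 8 h were mixed in these libraries. At 12 h, 128 (24.4%) were at least 2-fold above and 181 (34.5%) at least 2-fold below their 0 h level, and at 24 h 18.3% were above and 27.0% below. At 24 h against 12 h, 51 (9.7%) were higher and 59 (11.2%) lower, and these 51 were 34.5% of all 148 genes higher at 24 h than at 12 h. The 4 h library held the highest value for 322 of the 525 genes, the 0 h library for 182 and the 24 h library for 21. For the 339 higher genes the 12 h library held the highest value in 130 cases, the 24 h library in 90, the 0 h library in 76 and the 8 h library in 43. Their lowest value was in the 4 h library in 211 cases, the 0 h library in 120 and the 24 h library in 8. Of all 9795 genes, 4515 had their lowest value at 4 h. These counts are a description, since they use the 8 h and 4 h libraries by which the genes were chosen.

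**Figure D4:**
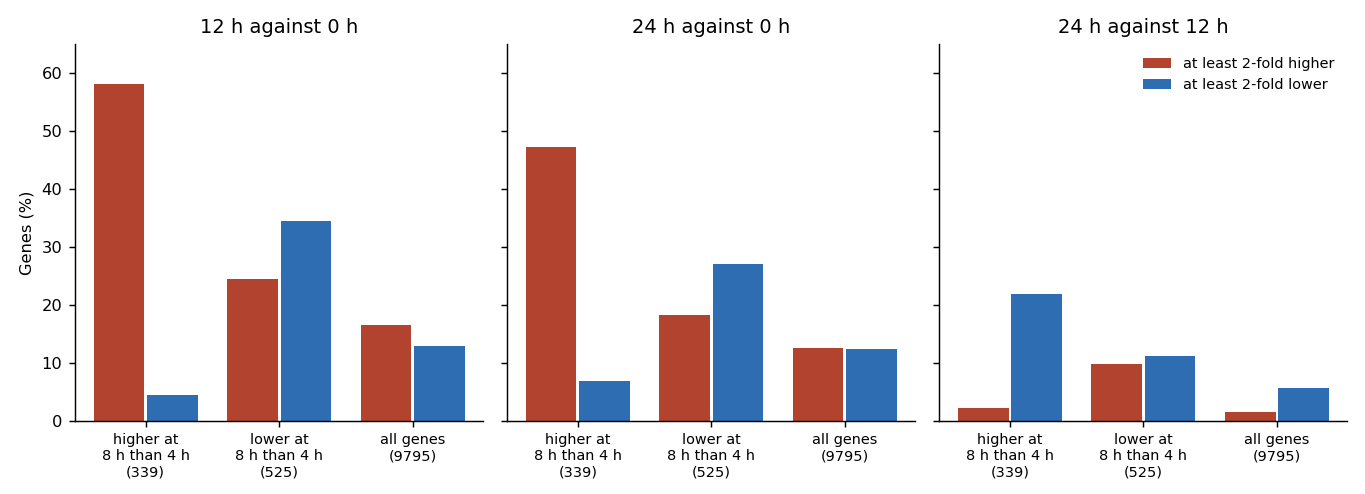
Bars give the percentage of genes at least 2-fold higher (red) or lower (blue) in 3 comparisons that use neither the 8 h nor the 4 h library, for the 339 genes higher at 8 h than at 4 h, the 525 lower and all 9795. Each comparison is centred on its own median gene. The first set has 58.1% higher at 12 h than at 0 h, against 16.5% of all genes.

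Transcript length differed between the genes apart and the rest. Transcripts were taken at their longest annotated coding form, which 99.4% of the genes had, and the median length was 2588 nt for the 339 higher genes, 3934 nt for the 525 lower genes and 3034 nt for all. Genes were put into 10 groups of equal size by length. In the group with the longest transcripts, 11.8% were at least 2-fold lower and 1.85% higher at 8 h, with a median of -0.29. In the group with the shortest, 2.98% were lower and 4.62% higher, with a median of 0.08. With the trend by length removed, 334 genes were higher and 470 lower, of which 290 and 421 were the same genes as before. Among the 15 lowest genes the lengths ran between 953 nt for Cxcl1 and 9797 nt for Noct. The part of length in the differences of single genes was not tested.

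**Figure D5:**
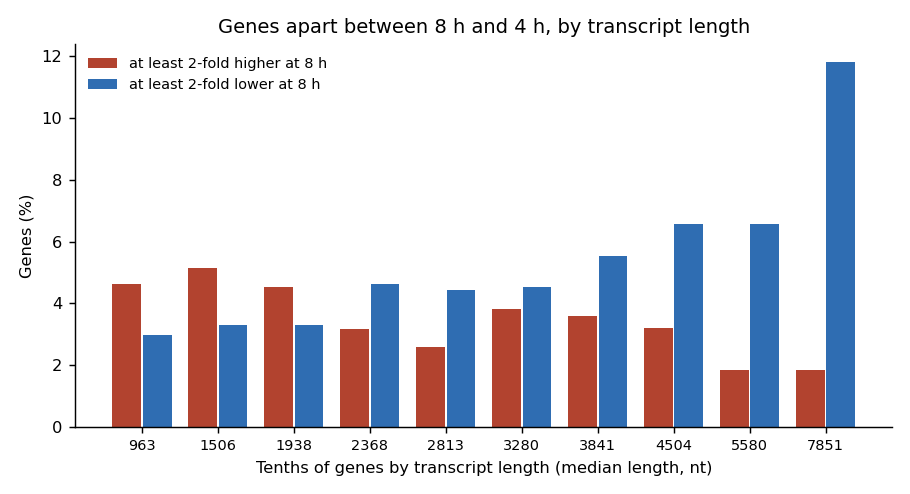
Bars give the percentage of genes at least 2-fold higher (red) or lower (blue) at 8 h than at 4 h in 10 equal groups of genes ordered by transcript length, labelled with the median length in nt. The share of lower genes is 2.98% in the shortest group and 11.8% in the longest.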

How the data were processed

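RNA sequencing libraries of LPS-treated macrophages, 1 per time point, were compared. The deposited table gives FPKM computed by the authors, to 2 decimals, with 1 column for each library. The submitters' processing notes name Bowtie2, RSEM and GRCm38, with no role or version; which annotation or low-value filter was applied is not given in the sources used here. Reads shared by near-identical genes may be divided among them, and an FPKM is lower where other genes take more of the library. FPKM give no depth. Low values of genes with 1 transcript of 400 to 2500 nt were compared with whole multiples of 1 read over a range of depths (tolerance 0.04 reads or the rounding of 0.005 FPKM). For each library, the depth and a shortening of the transcripts were picked for the largest excess of whole values over chance. At that setting 23.6% to 32.1% of 70 to 142 values per library were whole, against 13.5% to 14.8% by chance. The chance share does not allow for this search, so the excess cannot be read as evidence of whole reads. Depth therefore remains unknown, whole reads were not recovered, no count test was run and no counting interval is given.

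Differences were computed as log2(FPKM + 1), which understates changes of low genes, and centred on the median of the 9795 genes over the filter. At 4 h 3 of these genes, and at 8 h 3, were listed at 0, and no fold is given for them. The members and the 51 gene lists were chosen with earlier results of these data known. Named are the 15 largest differences in each direction among the 4626 genes with at least 10 FPKM at 8 h or 4 h, and from each list members among the 3 with the largest absolute difference and the 1 most opposite. Other members past 2-fold, and Tnf, Il6, Ccl5, Socs3, Hif1a, Cmpk2, Rsad2 and Setd2, were named after their values were seen. The same holds for Il19, Ebi3, Il18, Csf3r, Il2ra, Il21r, Il6ra, Cd40, Cd86, Cd274, Idh3a, Idh3b and Idh3g. It also holds for the promoter motifs, the 4 promoters shown and the genes named from symbol stems. In 20 rows a symbol that had become a date was restored with the RefSeq gene table (GRCm38.p6), which held 13319 of the identifiers. Transcript lengths came from GENCODE M21 and promoters from RefSeq. The centring and counting step was tested on simulated data. Python 3.11.15, pandas 2.3.3 and numpy 2.4.6 were used. Alternatives were no centring, centring on genes with a mean of at least 10 FPKM, pseudocounts of 0.1 and 5, no filter, a mean of at least 5 FPKM, removal of the length trend, and 1.5-fold and 4-fold limits.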

Additional observations from a re-analysis of the deposited data

How the results depend on the processing

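No paired analysis was possible because each time point had 1 library, and for the same reason none could be left out. The counts of 339 higher and 525 lower genes depended most on the limit, with 1133 and 1443 at 1.5-fold and 29 and 56 at 4-fold, and on the pseudocount, with 670 and 796 at 0.1 and 143 and 249 at 5. Without centring 512 were higher and 380 lower, and without the filter 428 and 435 (49.6% higher), where the median difference of all listed genes is 0.06. A mean of at least 5 FPKM gave 290 and 418. Centring on genes with a mean of at least 10 FPKM gave 339 and 525, as the median difference of those genes was also 0.15. Of 201 named genes and list members, 168 to 201 kept their side of the 2-fold limit under each alternative that retained all of them, fewest with a pseudocount of 5, and 0 changed direction after being called. Of the list medians, that of prostaglandin and leukotriene genes turned to 0.091 with a mean of at least 5 FPKM, and that of inflammatory cytokines was -1.34 with a pseudocount of 5; the cause was not tested. Single genes near the limit, and genes of a few FPKM, are the least firm, since no replicate gives their error.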

Other observations

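Genes that share a symbol stem were also described, over 113 stems with at least 10 genes over the filter; the stems and genes below were picked after their values were seen. A stem is the letters before the first digit or dash, so it can take in genes of other function. The highest medians belonged to Ly (12 genes, 3 higher and 0 lower, median 0.40), Atg of autophagy (17 genes, 0 apart, 0.39), Psmb and Psmd of the proteasome (10 genes with 0.39 and 14 with 0.30), Phf (19 genes, 2 higher and 1 lower, 0.27) and Mrpl of the mitochondrial ribosome (48 genes, 0 apart, 0.26). The stems used for cytosolic ribosomal proteins, Rps (40 genes) and Rpl (49 genes), each had -0.28. In the Ly stem, the surface antigen genes Ly6i (9.73 FPKM at 8 h and 1.64 FPKM at 4 h), Ly6a (34.5 and 12.9 FPKM) and Ly6e (395 and 167 FPKM) were higher, and Ly6a and Ly6i belong to a family of close copies.

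The lowest medians belonged to Bcl (16 genes, 1 higher and 2 lower, median -0.65), the myosins Myo (10 genes, 3 lower, -0.50), St (13 genes, -0.38), Ccl (12 genes, -0.37) and the lectins Clec (16 genes, 4 lower, -0.36). Myo1g had 36.95 FPKM at 8 h and 107.5 FPKM at 4 h, Myo5a 9.01 and 24.3 FPKM and Myo10 14.1 and 27.2 FPKM. Of 23 Arhgap genes, which switch small GTPases off, 6 were lower and 2 higher (median -0.26), with Arhgap26 at 2.46 FPKM at 8 h and 10.6 FPKM at 4 h and Arhgap25 at 13.3 and 3.68 FPKM.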
